A study of Homo sapiens and Mus musculus with 27 samples.

Results

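Actin filaments are built and taken apart by a set of proteins whose RNA was followed here across every condition of the study. The set comprised 60 genes for actin assembly and turnover, listed by name from textbook roles. They were matched to the gene names of the count tables without regard to letter case. No cut on a measured value was used, but the list was made with earlier results of these data known. All 60 were found in each of the 3 tables, among 59453 human and 55367 mouse gene names. They fall into 10 classes by role: 12 formins, 9 genes of the Arp2/3 complex, 6 regulators of branching, 9 genes of the cofilin axis, 3 gelsolin-family proteins, 3 capping protein subunits, 8 monomer-binding proteins, 3 Ena/VASP proteins, 3 bundling proteins and 4 linkers of the cell cortex. Gene symbols are written in capitals for both species.

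The study sequenced RNA from 27 libraries in 3 experiments, each with 3 groups of 3 replicates. Human LM2 cells, a lung-metastatic breast cancer line, and mouse 4T1 cells, a mammary carcinoma line, were compared as control, with overexpressed wild-type MKL1 and with overexpressed caMKL1, a constitutively active form. In the third experiment, LM2 cells were negative for, low in or high in LifeAct, a short actin-binding peptide used to make filaments visible. The genotype label was WT for all control, MKL1 and LifeAct samples. For the caMKL1 samples it ran caMKL1, caMKL2, caMKL3 over the replicates, while their titles and treatment labels say caMKL1, so they were taken as 1 group. The labels name neither the promoter of a construct nor its sequence, do not say whether a group is a clone, and do not say whether its replicates were grown apart, so p-values measure only the spread between these samples.

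An actin filament grows at its barbed end from monomers carried by profilin, and new filaments are started either by formins, which lengthen unbranched filaments, or by the Arp2/3 complex, which adds branches to existing filaments. Capping protein stops growth, cofilins and gelsolins cut old filaments, and thymosins hold free monomers in reserve. MKL1, whose gene is now named MRTFA, is itself kept inactive by binding actin monomers, and once released it joins the transcription factor SRF to switch on genes of the actin cytoskeleton.

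SRF recognises a short element known as the CArG box. A search for it on both strands of 300-base human promoter windows from RefSeq (GRCh38.p14, 250 bases before to 50 after each start) found it at 438 of 27305 genes, or 1.6%. Of the 55 members with a window, 1 held it, SVIL, and the windows of ARPC1B, WASF2, CTTN, PFN2 and FSCN1 were not in that table. The stretch around the SVIL box is shown because it is the only match among the members, with the box in capitals, read on the minus strand at chr10:29634972-29635034 (GRCh38.p14), where the box begins at position -33 relative to the start of 1 of 4 SVIL entries.
SVIL: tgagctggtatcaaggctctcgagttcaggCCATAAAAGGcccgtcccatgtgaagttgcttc
This describes letters in short windows only, and says nothing of elements farther away or of binding.

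A library held 22147429 to 32147377 counts in the LM2 experiment, between 21896459 and 29370432 with 4T1, and 15581289 to 23678322 with LifeAct. Levels of a gene are given below as CPM, counts scaled for library size, and levels between genes as TPM, which also divides by gene length. MRTFA, the gene overexpressed, checked the labels: it was at 10.3 to 11.5 CPM in LM2 control, 140.2 to 181 with MKL1 and 175 to 257 with caMKL1, and at 37 to 41.6, 2087 to 2199 and 596 to 679 CPM in 4T1. SRF and the actin genes ACTB and ACTG1 passed as higher in all 6 comparisons with control or negative cells, for ACTB with log2 ratios of 1.46 and 3.27 in LM2, 1.20 and 2.49 in 4T1 for MKL1 and caMKL1, and 0.56 in LifeAct high cells. The replicate 1 library of LM2 caMKL1 stood apart from the others of its group, with mitochondrial genes at 7.76% of counts against 13.4% to 13.6%. In LM2 control their share was 7.73% to 8.94%. Replicate 1 thus lay in the control range, and replicates 2 and 3 were the highest of the experiment. In LM2 MKL1 the mitochondrial genes were at 6.18%, 9.87% and 7.11% in replicates 1 to 3, so replicate 1 was lowest but did not stand apart. Marker genes of epithelial and breast carcinoma cells (KRT8, KRT18, KRT19, KRT7, EPCAM, CDH1 and the mesenchymal gene VIM) summed to 1550 to 9772 TPM over all libraries. VIM alone was at 1252 TPM of the 1620 to 1731 in LM2 control, and CDH1, the epithelial cadherin, was nearly absent in LM2 (0.068 TPM in control) and stood at 536 TPM in 4T1 control. Summed fibroblast markers (6 genes) stayed between 4.54 and 17.2 TPM. In bulk RNA, fewer cells of a type and less RNA per cell cannot be told apart.

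By counts, the 60 genes took a larger share with MKL1 and a still larger one with caMKL1. In LM2 their summed share was 1.25% to 1.27% in control, 1.46% to 1.62% with MKL1 and 1.84% to 1.99% with caMKL1. In 4T1 it was 1.18% to 1.20%, 1.46% to 1.47% and 1.72% to 1.74%, while the LifeAct groups stayed close together, at 1.22% to 1.24% in negative, 1.25% to 1.26% in low and 1.26% to 1.28% in high cells. Corrected for gene length, the LM2 caMKL1 share of summed TPM was 1.87% in replicate 1 and 1.36% and 1.35% in the others, against 1.29% to 1.35% in control, so that by TPM the LM2 caMKL1 libraries other than replicate 1 lay close to control. With MKL1 the TPM share was 1.90%, 1.34% and 1.59%, so that the order of the constructs in LM2 holds by counts and not by TPM. The thymosin genes TMSB4X and TMSB10 weigh heavily in these sums. Together they were at 4719 ± 129 TPM (SD) in LM2 control, 5736 ± 1808 with MKL1 and 3649 ± 1143 with caMKL1. The TPM share without these thymosins was not worked out. The closeness to control and the lost order are thus not shown for the other members. The TPM share of the 60 genes in 4T1 went from 1.10% to 1.15% in control to 1.82% to 1.91% with caMKL1. In LifeAct cells it went down, from 1.51% to 1.54% in negative to 1.36% to 1.44% in high cells. There TMSB4X and TMSB10 together fell from 8973 ± 299 to 6570 ± 126 TPM, so the lower share does not mean that the other members declined. The members were abundant genes, with a median level of 163 CPM in LM2, 169 in 4T1 and 126 in LifeAct, where the median of all tested genes was 7.88, 16.5 and 7.47 CPM.

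Wild-type MKL1 raised more members than it lowered in both lines. In LM2, 18 of 60 members rose, 2 fell and 40 did not pass (edgeR adjusted p under 0.05), a share called of 33.3% beside 12% of all 18893 tested genes, of which 7.25% were higher and 4.74% lower. In 4T1, 34 of 57 tested members rose, 7 fell and 16 did not pass, or 71.9% called beside 34.3% of 16297 tested genes (19.3% higher and 15% lower). The median log2 ratio of the members was 0.13 in LM2 and 0.17 in 4T1. Of the LM2 calls, 10 of the 18 higher and 0 of the 2 lower passed under every alternative setting, and leaving out control replicate 2 left 10 higher and 0 lower. Without the replicate 1 libraries of the MKL1 and caMKL1 groups, 22 rose and 2 fell. With library totals in place of the scaling, the 4T1 counts became 30 higher and 13 lower.

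Larger and more divided changes came with caMKL1. In LM2, 31 of 60 members rose, 14 fell and 15 did not pass, so that 75.0% were called beside 64.9% of all tested genes, with 31.9% of genes higher and 33.0% lower. In 4T1, 37 of 57 rose, 17 fell and 3 did not pass, or 94.7% called beside 72% of genes (36.2% higher and 35.8% lower). Over all comparisons with control, changes of at least 2-fold were most frequent here, with 14 members higher and 6 lower in LM2, and 13 higher and 4 lower in 4T1. The share of all genes at that cut was not worked out, so these 2-fold counts have no background. By adjusted p alone, the share called was nearer to the background in LM2 than in 4T1. The medians were 0.28 and 0.29 on the log2 scale. These counts depended on scaling: with library totals, under which the median of all genes was -0.46 in LM2 and -0.21 in 4T1, there were 24 higher and 25 lower in LM2, and 31 higher and 22 lower in 4T1. Leaving out the 2 replicate 1 libraries gave 33 higher and 17 lower in LM2. Both constructs were compared with the same control libraries of their line, so their calls are not independent of each other.

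Set against wild-type MKL1 directly, caMKL1 had 25 of 60 members higher and 16 lower in LM2, 68.3% called beside 64.5% of genes (32.6% higher and 31.9% lower). In 4T1 there were 32 of 57 higher and 19 lower, 89.5% called beside 66.6% (33.8% higher and 32.8% lower). The median difference was 0.10 and 0.14 on the log2 scale, and with library totals the LM2 counts turned to 18 higher and 29 lower. In 4T1 MRTFA itself was lower with caMKL1 than with MKL1 (596 to 679 against 2087 to 2199 CPM), and the part of this level was not tested. LifeAct expression also went with many small changes. Cells low in LifeAct had 25 of 60 members higher and 19 lower than negative cells (73.3% called beside 49.6% of 21869 tested genes, 26.0% higher and 23.6% lower). Cells high in LifeAct had 31 higher and 21 lower (86.7% beside 71.1%, with 36.0% higher and 35.2% lower), and high against low cells had 31 higher and 15 lower (76.7% beside 50.3%, with 26.6% higher and 23.7% lower). Changes of at least 2-fold between LifeAct high and negative cells were limited to 4 rises and 5 falls, again without a share of all genes at that cut. Summed endothelial markers (5 genes) were at 41.0 to 41.9 TPM in negative, 15 to 15.9 in low and 5.72 to 6.66 in high cells, mostly PECAM1 (38.9 TPM in negative and 2.92 in high cells), and their part in these changes was not tested.

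**Figure D1:**
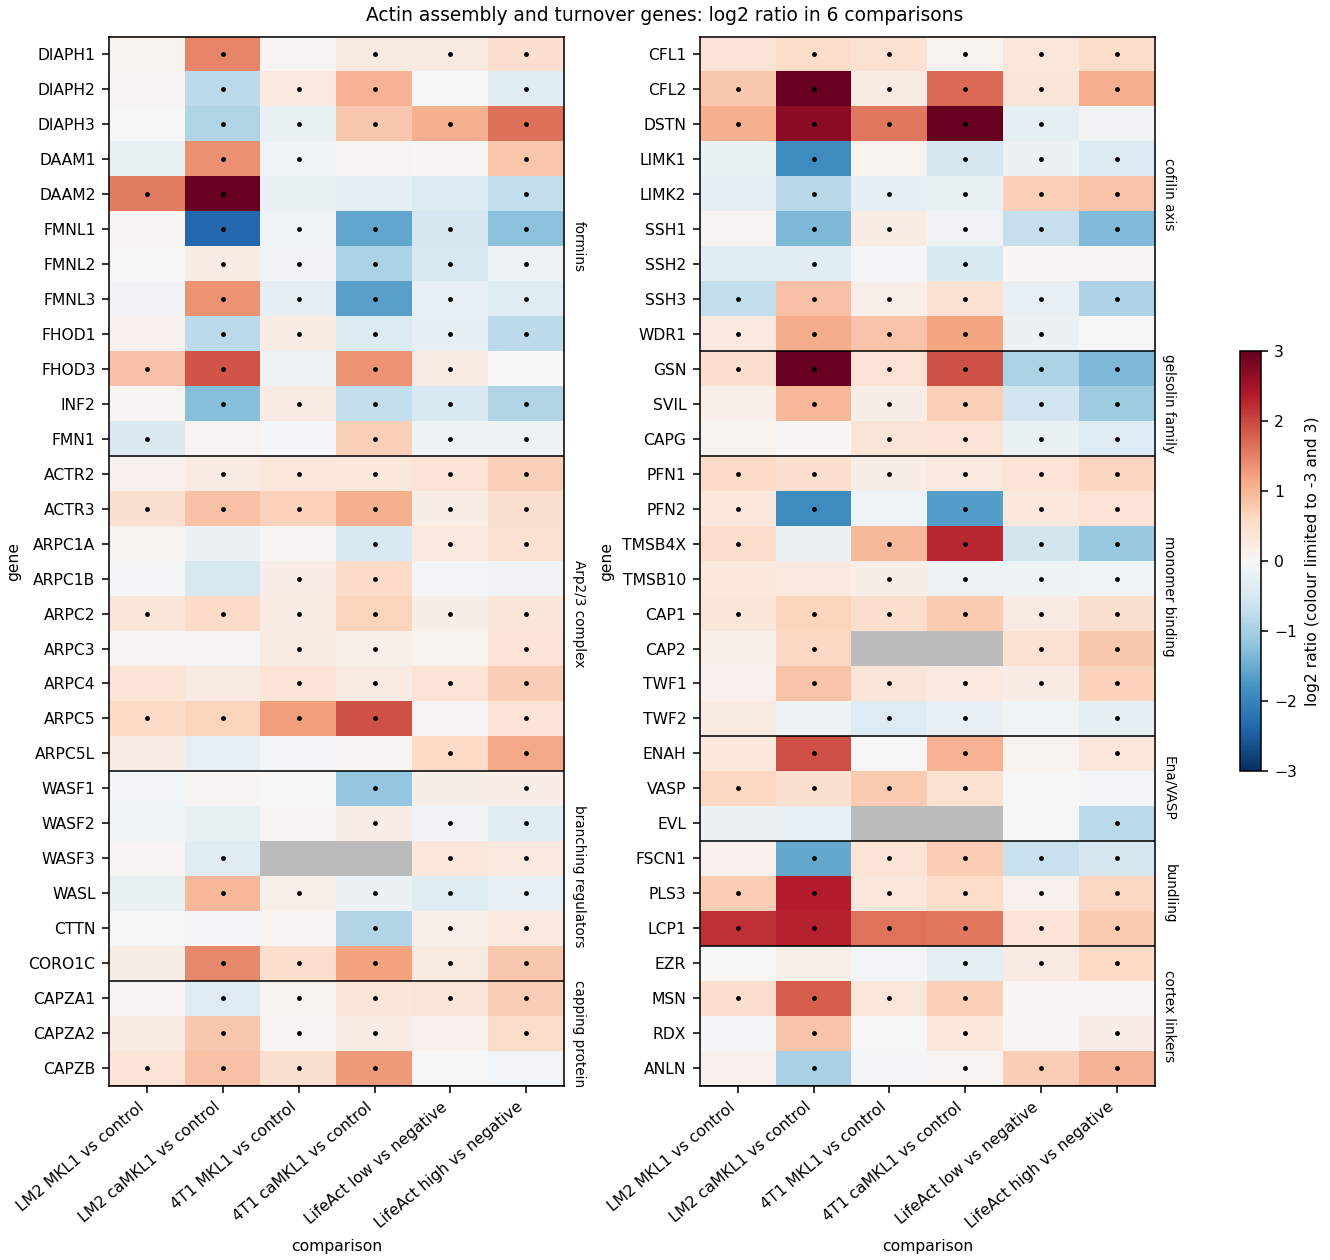
Log2 ratio of each member (rows, grouped by class) in the 6 comparisons with control or negative cells (columns); red is higher and blue lower, the colour is limited to -3 and 3, a dot marks an edgeR adjusted p under 0.05 and grey a gene not tested. DSTN, CFL2, GSN, LCP1 and PLS3 are red in all 4 construct columns, and FMNL1 is blue under caMKL1 and under LifeAct high.

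Cofilins and destrin bind aged filaments and cut them, and destrin also frees monomers from the ends. DSTN, the gene for destrin, stood at 333, 314 and 308 CPM in the LM2 control libraries, 759.7, 604 and 650.3 with MKL1 and 2089, 2078 and 2029 with caMKL1. The 4T1 libraries had 192, 203 and 197 CPM in control, 576, 598 and 586 with MKL1 and 1871, 1867 and 1869 with caMKL1. In both lines the 3 groups did not overlap. DSTN rose 2.11-fold with MKL1 and 6.49-fold with caMKL1 in LM2 (log2 ratio 1.08 ± 0.10 and 2.70 ± 0.11, mean ± SE, adjusted p = 3.5e-06 and 4.8e-12), and 2.97-fold and 9.46-fold in 4T1 (log2 1.57 ± 0.03 and 3.24 ± 0.03, adjusted p = 1.6e-22 and 2.0e-29). With caMKL1, no other log2 ratio was as large among the 57 members tested in 4T1. LifeAct cells did not follow: DSTN was at 223, 226 and 262 CPM in negative, 197, 194 and 189 in low and 202, 229 and 226 in high cells, lower in low cells (-0.29 ± 0.05, adjusted p = 3.6e-05) and not passing in high cells (adjusted p = 0.0546).

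CFL2, the cofilin typical of muscle, was at 152, 144 and 131 CPM in LM2 control, 288, 245 and 219.5 with MKL1 and 1092, 1182 and 1146 with caMKL1. For 4T1 the values were 125, 131 and 129 CPM in control, 157, 152 and 151 with MKL1 and 438, 403 and 408 with caMKL1. All of these groups lay apart, and the caMKL1 log2 ratio was 3.01 ± 0.11 in LM2 and 1.70 ± 0.03 in 4T1 (adjusted p = 3.0e-12 and 9.4e-23). With MKL1 the log2 ratio was 0.82 ± 0.11 in LM2 and 0.26 ± 0.03 in 4T1. CFL2 also rose along the LifeAct groups, from 37.2, 37.5 and 47.1 CPM in negative to 54.4, 50.6 and 53.3 in low and 78.7, 90.5 and 91 in high cells (log2 1.09 ± 0.07 in high cells, adjusted p = 7.2e-14). CFL1, the cofilin of most non-muscle cells, had smaller ratios than CFL2 with caMKL1: it was at 316, 298 and 298 CPM in LM2 control, 531, 353 and 355 with MKL1 and 504, 425 and 405 with caMKL1, and at 561 to 577, 778 to 791 and 597 to 615 CPM in the 3 groups of 4T1. With MKL1 the log2 ratio of CFL1 did not pass in LM2 (adjusted p = 0.0507) and was 0.46 ± 0.03 in 4T1 (adjusted p = 4.8e-13). With caMKL1 it was 0.55 ± 0.14 in LM2, which did not pass with library totals (log2 0.15, adjusted p = 0.413), and 0.10 ± 0.03 in 4T1, where it became -0.087 with library totals.

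The make-up of the cofilin family therefore differed between groups, as summed TPM of CFL1, CFL2 and DSTN. DSTN made up 52 ± 0.195% of that sum (SD, n = 3) in LM2 control, 60.5 ± 2.32% with MKL1 and 64.9 ± 0.231% with caMKL1. In 4T1 its share was 30.2 ± 0.232%, 48.8 ± 0.478% and 74.1 ± 0.136%, while that of CFL1 was 58.4 ± 0.288%, 43.8 ± 0.374% and 16.2 ± 0.288%. CFL1 fell from 30.9 ± 0.459% to 8.66 ± 0.942% of the sum in LM2. Each of these shares lay apart between the groups, at the exact two-sided permutation p of 0.1, the smallest that 3 against 3 libraries can give. DSTN thus went from the ninth highest member by TPM in 4T1 control (378 ± 10.8 TPM) to the highest with caMKL1 (3204 ± 81 TPM). Reads of CFL1 that match several places are left uncounted, so its level beside its relatives is uncertain.

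**Figure D2:**
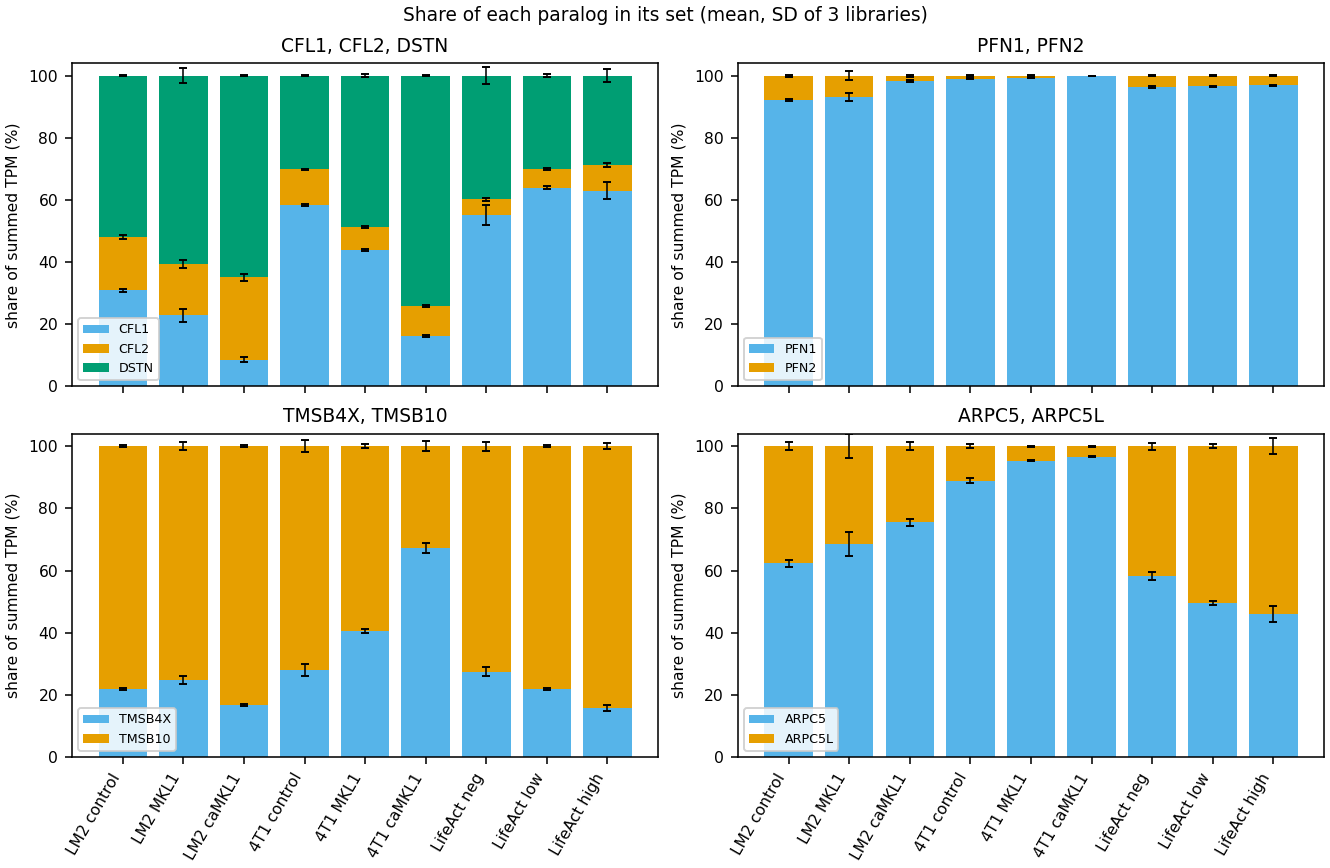
Share of each gene in the summed TPM of its set (vertical axis, percent), for 4 sets of related members in the 9 groups (horizontal axis); bars are means and error bars SD of 3 libraries. The DSTN share reaches 64.9% in LM2 and 74.1% in 4T1 with caMKL1, and the TMSB4X share rises in 4T1 to 67.2% but is 16.8% in LM2 with caMKL1.

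Of the 5 kinases and phosphatases that switch cofilin off and on, 4 fell with caMKL1 in LM2 and SSH3 rose. Among all tested genes, 33.0% were lower and 31.9% higher there. LIMK1, a kinase that inactivates cofilin, was at 38.4, 36.2 and 43.4 CPM in LM2 control and 13.3, 9.97 and 8.44 with caMKL1 (log2 -1.89 ± 0.14, adjusted p = 9.5e-09), and its relative LIMK2 had a log2 ratio of -0.83 ± 0.17 there. SSH2 and SSH3, slingshot phosphatases that reactivate cofilin, parted, with SSH2 lower in both lines with caMKL1 (-0.34 ± 0.10 and -0.45 ± 0.04) and SSH3 higher (0.89 ± 0.19 and 0.46 ± 0.04, the first not passing with library totals, adjusted p = 0.0525). SSH1, of the same family, was at 95.7, 92.2 and 94.5 CPM in control and 38.9, 36.4 and 36.4 with caMKL1 (log2 -1.34 ± 0.09, adjusted p = 2.0e-09). LIMK1, LIMK2 and SSH1 did not pass with wild-type MKL1 in LM2 (adjusted p = 0.365, 0.253 and 0.584). In 4T1 the caMKL1 log2 ratios were smaller, -0.52 ± 0.09 for LIMK1, -0.22 ± 0.04 for LIMK2 and -0.10 ± 0.04 for SSH1. The SSH1 call in 4T1 did not pass under 6 of the alternatives (adjusted p = 0.0558 to 0.217). Cells high in LifeAct had SSH1 at 166, 153 and 152 CPM where negative cells had 399, 403 and 386 and low cells 248, 247 and 239, with no overlap between the 3 groups (log2 -1.33 ± 0.04 high against negative, adjusted p = 3.2e-21). LIMK2 went the other way there, at 10.7, 10.4 and 10.02 CPM in negative and 19.6, 16.5 and 20.4 in high cells (log2 0.87 ± 0.09, adjusted p = 3.4e-09). WDR1, the cofilin partner that helps take filaments apart, was at 351, 363 and 366 CPM in LM2 control and 833, 779.6 and 718 with caMKL1, and in 4T1 at 403, 400.01 and 386 CPM in control, 712, 708 and 714 with MKL1 and 897, 899 and 907 with caMKL1. Its caMKL1 log2 ratio was 1.11 ± 0.09 and 1.19 ± 0.03 in the lines (adjusted p = 2.9e-08 and 5.8e-22).

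Gelsolin severs filaments and caps the new ends. GSN was at 18.7, 18.4 and 22.9 CPM in LM2 control, 36.1, 23.1 and 27 with MKL1 and 223, 173 and 175 with caMKL1. In 4T1, where it started higher, it was at 235, 237 and 239 CPM in control, 321, 322 and 314 with MKL1 and 867, 890.05 and 898 with caMKL1. In each line GSN was higher in all 3 caMKL1 libraries than in any other, 9.52-fold over control in LM2 and 3.74-fold in 4T1 (log2 3.25 ± 0.16 and 1.90 ± 0.03, adjusted p = 5.3e-11 and 1.5e-25). With MKL1 the log2 ratio was 0.53 ± 0.15 in LM2 (adjusted p = 0.0353), a call that ended when control replicate 1 or 2 or MKL1 replicate 1 was left out (log2 0.33 to 0.48, adjusted p = 0.131 to 0.141). The LifeAct groups went in the opposite direction, with GSN at 221, 212 and 199 CPM in negative, 106, 114 and 109 in low and 87.1, 80.7 and 81.2 in high cells, where the fall was 2.54-fold (log2 -1.34 ± 0.05, adjusted p = 6.0e-20). The difference between the construct and LifeAct responses of GSN was not tested, and those experiments also differ in RNA selection.

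The other gelsolin-family members shared part of that pattern. SVIL, the gene for supervillin, which ties actin and myosin to membranes and whose promoter window held the box printed above, was at 132, 139 and 157 CPM in LM2 control, 141, 159 and 175 with MKL1 and 285, 283 and 283 with caMKL1. The caMKL1 log2 ratio was 0.99 ± 0.10 in LM2 and 0.72 ± 0.03 in 4T1 (adjusted p = 2.5e-07 and 1.2e-15), while the MKL1 ratio in LM2, 0.15 ± 0.10, did not pass. In LifeAct cells SVIL stood at 440.5, 451 and 427 CPM in negative, 295, 293 and 295 in low and 220.3, 199 and 206 in high cells (log2 -1.07 ± 0.04, adjusted p = 2.5e-19). CAPG, a gelsolin relative that caps without cutting, did not pass with either construct in LM2 (adjusted p = 0.69 and 0.857) and rose in 4T1 with MKL1 (0.39 ± 0.03) and caMKL1 (0.40 ± 0.03). All 3 members of the class were thus lower in LifeAct high than in negative cells, and 2 of 3 in LM2 and 3 of 3 in 4T1 were higher with caMKL1. Over all tested genes, 35.2% were lower in LifeAct high cells, and 31.9% in LM2 and 36.2% in 4T1 were higher with caMKL1.

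**Figure D3:**
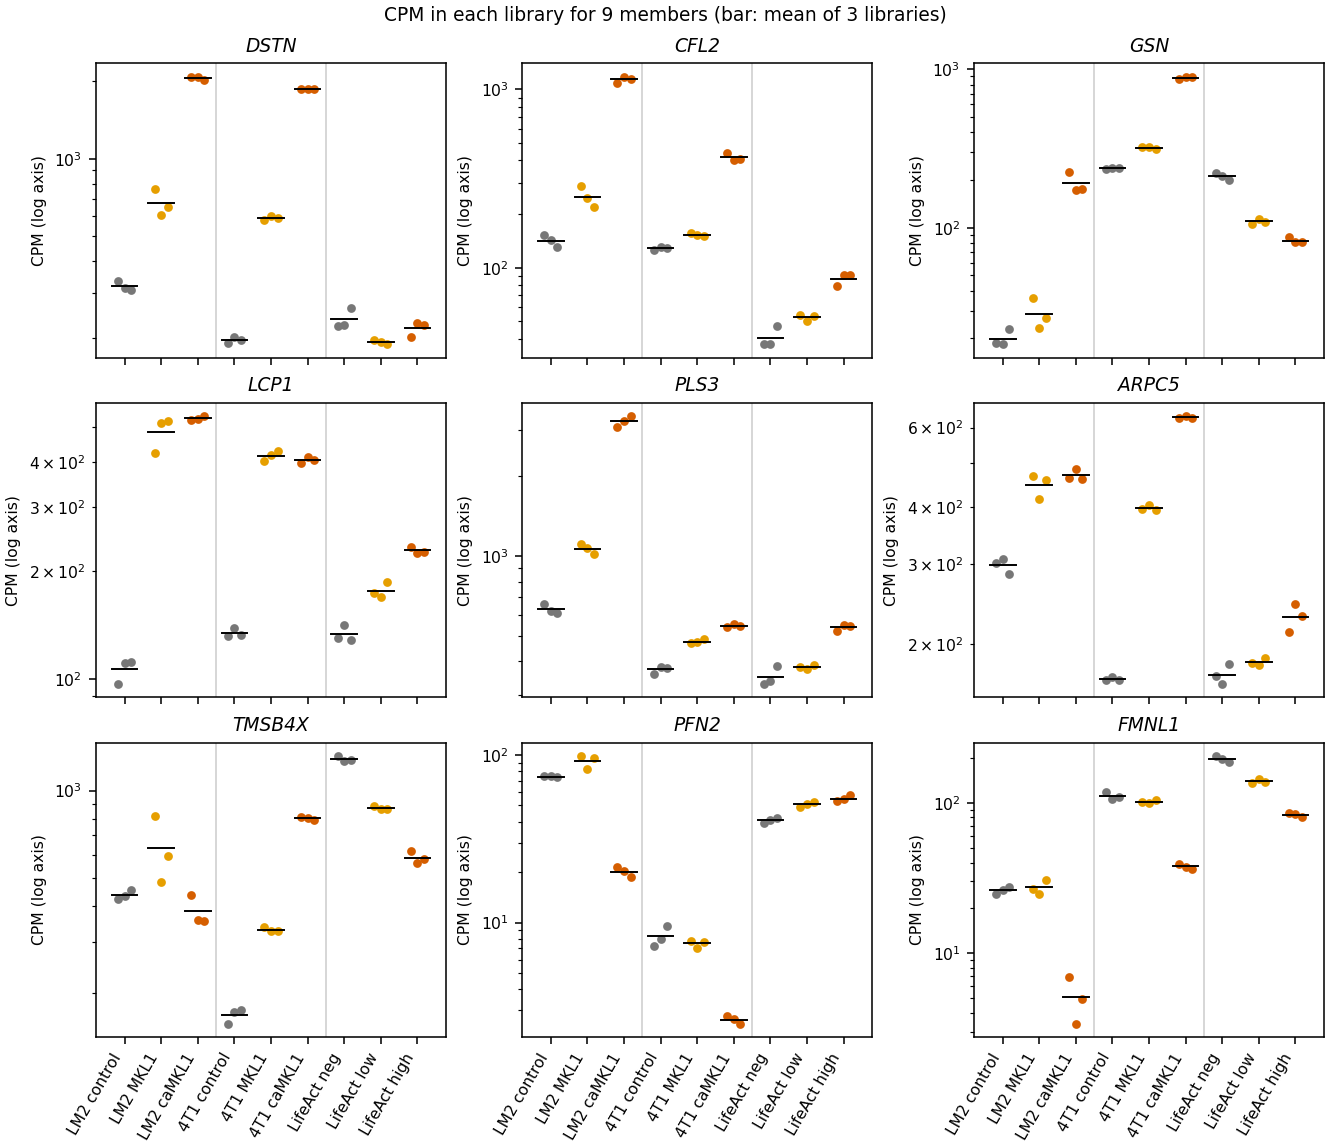
CPM of 9 members in every library (vertical log axis, a separate range for each gene) by group (horizontal axis); points are libraries and bars the mean of 3. DSTN, CFL2 and GSN are highest with caMKL1 in both lines, LCP1 is high with both constructs, and GSN, TMSB4X and FMNL1 step down from LifeAct negative to high cells.

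Plastins and fascin hold filaments in parallel bundles. LCP1, the plastin of leukocytes that many carcinoma lines also express, was at 97.1, 111 and 112 CPM in LM2 control, 423, 514 and 519 with MKL1 and 522, 527 and 536 with caMKL1. In 4T1 it stood at 132, 139 and 133 CPM in control, 402, 417 and 428 with MKL1 and 396, 414 and 406 with caMKL1. All libraries with a construct lay above all control libraries. The log2 ratio with MKL1 was 2.19 ± 0.10 in LM2 and 1.63 ± 0.03 in 4T1, beside 2.31 ± 0.10 and 1.59 ± 0.03 with caMKL1, and caMKL1 less MKL1 was 0.12 ± 0.10 in LM2 and -0.04 ± 0.03 in 4T1, neither passing (adjusted p = 0.286 and 0.296). Among the members, LCP1 had the largest log2 ratio with MKL1 in each line (adjusted p = 1.6e-09 in LM2 and 1.4e-21 in 4T1). In LifeAct cells it went from 130.1, 141 and 128 CPM in negative to 173, 169 and 187 in low and 233, 224 and 225 in high cells (log2 0.77 ± 0.05, adjusted p = 8.1e-15). Summed leukocyte markers (6 genes) stayed at 0.172 to 0.739 TPM in the LM2 experiment. The mouse annotation holds no gene named LYZ. In 4T1 the others summed to 18.1 to 18.4 TPM in control, 54.6 to 61.9 with MKL1 and 144 to 169 with caMKL1. Nearly all of it was CD68 (18.2, 58.6 and 158 TPM), with CD3E and MS4A1 at 0 counts in all 9 libraries. PTPRC was at 0.00504, 0.0137 and 0.00226 TPM in the same groups, and ITGAM at 0.00899, 0 and 0. The part of these markers in the rise of LCP1 was not tested. Of LCP1's exon bases in the human annotation, 19.0% overlap the antisense gene CPB2-AS1. The counting shows no strand option, so reads there are left uncounted by its default.

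PLS3, the plastin of non-blood cells, responded in graded steps instead. It was at 659, 622 and 608 CPM in LM2 control, 1109.98, 1073 and 1020.5 with MKL1 and 3062, 3236 and 3372 with caMKL1, a 5.12-fold rise with caMKL1 (log2 2.36 ± 0.10, adjusted p = 9.4e-12). Its 4T1 levels were 359, 381 and 379.6 CPM in control, 468, 473 and 486 with MKL1 and 541, 554 and 545 with caMKL1, a 1.46-fold rise with caMKL1 (log2 0.55 ± 0.03, adjusted p = 1.6e-14). The caMKL1 response was -1.81 ± 0.09 on the log2 scale in 4T1 less LM2 (adjusted p = 5.1e-13). In LifeAct high cells PLS3 was at 522, 551 and 545 CPM, where negative cells had 329, 337 and 384 (log2 0.62 ± 0.05, adjusted p = 6.3e-13).

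FSCN1, which encodes fascin, the bundler of filopodia, went in opposite directions in the lines. With caMKL1 it fell in LM2, from 12.2, 12.5 and 12.6 CPM in control to 5.73, 3.34 and 3.57 (log2 -1.55 ± 0.19, adjusted p = 3.1e-06). In 4T1 it rose from 378, 345 and 338 CPM to 476, 472 and 454 with MKL1 and 598, 595 and 617 with caMKL1 (log2 0.77 ± 0.03, adjusted p = 8.2e-16). The levels differ too: FSCN1 was at 13.6 ± 0.344 TPM in LM2 control and 429.7 ± 31.3 TPM in 4T1 control, from tables normalised separately. In LifeAct cells it was at 132, 135 and 126 CPM in negative, 81.3, 83 and 84.1 in low and 96.5, 87.2 and 91.6 in high cells, with every low and high library below the negative ones (log2 -0.51 ± 0.05 in high cells).

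Thymosins and profilins share out the monomer pool. TMSB4X, the gene for thymosin beta-4, which sequesters monomers, was at 156, 172 and 174 CPM in 4T1 control, 336, 328 and 327 with MKL1 and 811, 804 and 792 with caMKL1, with no overlap between groups and a 4.79-fold rise with caMKL1 (log2 2.26 ± 0.03, adjusted p = 3.9e-25). In LM2 it was at 422, 431 and 452 CPM in control, 819.5, 484 and 592 with MKL1 and 436, 358 and 355 with caMKL1, where the groups overlapped for caMKL1 and the ratio did not pass (log2 -0.18 ± 0.15, adjusted p = 0.292). The rise with MKL1 in LM2 (log2 0.54 ± 0.15, adjusted p = 0.0284) did not pass when any control library or MKL1 replicate 1 was left out (log2 0.31 to 0.57, adjusted p = 0.0878 to 0.102). The caMKL1 response was 2.44 ± 0.18 higher on the log2 scale in 4T1 than in LM2 (adjusted p = 3.0e-10), the largest positive difference among the members. LifeAct high cells had 617, 561 and 579.6 CPM and low cells 888, 865 and 862, all below the 1318, 1265 and 1279 CPM of negative cells (log2 -1.14 ± 0.04, adjusted p = 8.9e-21). The related TMSB10, the most abundant member by TPM in LM2 and 4T1 control and in LifeAct negative cells (3684 ± 112, 1156 ± 57.5 and 6514 ± 344 TPM), moved less, with caMKL1 log2 ratios of 0.29 ± 0.15 in LM2 (not passing) and -0.14 ± 0.04 in 4T1. Of the summed TPM of both thymosins, TMSB4X made up 27.9 ± 1.9% in 4T1 control, 40.5 ± 0.694% with MKL1 and 67.2 ± 1.66% with caMKL1, against 21.9 ± 0.243%, 24.7 ± 1.33% and 16.8 ± 0.257% in LM2. TMSB4X, like CFL1 and PFN1, has processed copies in the genome, and reads shared with them are left uncounted.

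PFN1, the profilin of most tissues, rose modestly with caMKL1 (log2 0.52 ± 0.14 in LM2 and 0.29 ± 0.03 in 4T1, though 0.097 with adjusted p = 0.519 under library totals in LM2). Its relative PFN2, best known from neurons, fell instead: it was at 75.1, 74.5 and 73.4 CPM in LM2 control, 98.8, 83 and 96 with MKL1 and 21.3, 20.2 and 18.7 with caMKL1. Among the 4T1 libraries, controls had 7.22, 8 and 9.57 CPM and caMKL1 2.76, 2.66 and 2.49. The caMKL1 libraries of both lines lay below all control libraries, at log2 ratios of -1.89 ± 0.10 and -1.65 ± 0.13 (adjusted p = 1.0e-10 and 5.0e-11), and the lines' responses did not pass as different (difference 0.24 ± 0.15, adjusted p = 0.174). PFN2 made up 7.93 ± 0.302% of the summed profilin TPM in LM2 control and 1.63 ± 0.328% with caMKL1. In LifeAct high cells PFN2 was higher than in negative cells (log2 0.43 ± 0.06, adjusted p = 1.5e-07). CAP1, the cyclase-associated protein that recycles monomers, rose with caMKL1 in LM2 (0.67 ± 0.09) and 4T1 (0.79 ± 0.03) and in LifeAct high cells (0.48 ± 0.04). Its relative CAP2 had 0 counts in all 9 libraries of 4T1, which allows up to 3 counts in each, and rose in LM2, where it was at 72.5 to 80.5 CPM in control and 115 to 121 with caMKL1 (0.63 ± 0.09). TWF1, the monomer-binding twinfilin, rose in both lines with caMKL1 (0.85 ± 0.10 and 0.29 ± 0.04), and TWF2 fell in 4T1 (-0.25 ± 0.05) without passing in LM2 (adjusted p = 0.565).

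Genes of the Arp2/3 complex, the machine that adds branches, were called higher more often than lower, mostly by less than 2-fold. In LM2, 3 of 9 rose and 0 fell with MKL1 (33.3% called beside 12% of all genes), and 4 of 9 rose and 0 fell with caMKL1 (44.4% beside 64.9%, so below the background). In 4T1, 7 of 9 rose and 0 fell with MKL1 (77.8% beside 34.3%), and 7 rose and 1, ARPC1A, fell with caMKL1 (88.9% beside 72%). In LifeAct cells 6 of 9 rose in low (66.7% beside 49.6%) and 8 of 9 in high cells (88.9% beside 71.1%), with 0 lower in either. With library totals, the caMKL1 calls of ACTR2 and ARPC2 in LM2 and of ARPC3 and ARPC4 in 4T1 were lost. ARPC5, a small subunit, gave the largest rise: it was at 166, 169 and 167 CPM in 4T1 control, 397, 404 and 395 with MKL1 and 630.1, 635 and 629 with caMKL1, 3.78-fold over control (log2 1.92 ± 0.03, adjusted p = 1.2e-25). In LM2 it was at 301, 308 and 285 CPM in control, 469.5, 417 and 459.6 with MKL1 and 465, 486 and 462 with caMKL1, where the 2 constructs overlapped and both lay above control (log2 0.59 ± 0.09 and 0.66 ± 0.09). Its counterpart ARPC5L, which takes the same place in other complexes, did not pass with either construct in either line. In LifeAct cells it did, going from 41, 41.7 and 42 CPM in negative to 61, 63 and 64.5 in low and 94, 88.1 and 91.2 in high cells (log2 1.13 ± 0.05, adjusted p = 2.1e-17). ARPC5 therefore held 88.9 ± 0.733% of the summed TPM of the 2 genes in 4T1 control and 96.7 ± 0.159% with caMKL1, 62.3 ± 1.23% and 75.5 ± 1.22% in LM2, and 58.2 ± 1.13% in LifeAct negative against 46 ± 2.56% in high cells.

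ARPC4, a core subunit, did not pass in LM2 with either construct (adjusted p = 0.0756 and 0.108) and rose in 4T1 with both (0.41 ± 0.04 and 0.24 ± 0.04, the second not passing with library totals, at 0.056 and adjusted p = 0.26). In the human annotation, 28.8% of its exon bases are shared with other genes, where reads are left uncounted. ACTR3, an actin-related core subunit, rose in all 4 construct comparisons, with log2 ratios of 0.49 ± 0.09 and 0.87 ± 0.09 in LM2 and 0.69 ± 0.03 and 1.06 ± 0.03 in 4T1 for MKL1 and caMKL1. Its 4T1 values were 319, 321 and 322 CPM in control, 519.6, 513 and 521 with MKL1 and 657, 669 and 674 with caMKL1, 3 groups that did not overlap. ACTR2, the other core subunit, had smaller ratios with caMKL1, 0.26 ± 0.09 in LM2, where it was -0.16 under library totals, and 0.32 ± 0.03 in 4T1. The scaffold subunit ARPC2 rose with caMKL1 by 0.58 ± 0.10 in LM2 (not passing with library totals, adjusted p = 0.10) and 0.67 ± 0.03 in 4T1. ARPC3 did not pass in LM2 (adjusted p = 0.44) and its 4T1 ratio of 0.15 ± 0.04 was -0.030 with library totals. ARPC1A and ARPC1B, which bind the nucleation-promoting proteins, moved apart in 4T1: ARPC1A fell by 1.37-fold and ARPC1B rose 1.5-fold with caMKL1 (log2 -0.45 ± 0.05 and 0.58 ± 0.04). ARPC1B was at only 1.62 to 2.47 CPM in LM2 control, but 58.6% of the exon bases of ARPC1A and 36.0% of those of ARPC1B are shared with other genes, chiefly the readthrough gene AC004922.1, in the human annotation. Reads there are left uncounted by the counting tool's default, so human levels of this pair are not compared with others.

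Proteins that switch the complex on and off were mixed. CORO1C, a coronin that removes branches and recycles filaments, was at 514, 527 and 479 CPM in LM2 control, 509.6, 654 and 556 with MKL1 and 1321, 1418 and 1370.3 with caMKL1. The 4T1 libraries were at 181, 182 and 179.9 CPM in control, 264, 258 and 265 with MKL1 and 417, 415 and 422 with caMKL1, and those of the LifeAct experiment at 376, 368 and 355 CPM in negative, 443, 441 and 447 in low and 651, 628 and 634 in high cells. Apart from LM2 MKL1, which overlapped LM2 control, the groups of each experiment lay apart. The caMKL1 log2 ratio was 1.44 ± 0.10 and 1.21 ± 0.03, and that of LifeAct high cells 0.80 ± 0.04 (adjusted p = 6.9e-09, 1.2e-21 and 1.7e-17). WASL, which encodes N-WASP, an activator of the complex, rose with caMKL1 in LM2, from 121, 122 and 127 to 209.5, 258 and 265 CPM (log2 0.99 ± 0.11, adjusted p = 6.9e-07), and fell slightly in 4T1 (-0.16 ± 0.04, adjusted p = 9.0e-04). WASF1, a WAVE protein of the same pathway, was at 17.4, 18.9 and 17.7 CPM in 4T1 control and 7.88, 8.3 and 7.79 with caMKL1 (log2 -1.17 ± 0.08, adjusted p = 7.3e-12) and did not pass in LM2 (adjusted p = 0.846). CTTN, the gene for cortactin, which stabilises branches, likewise fell in 4T1 with caMKL1 (-0.88 ± 0.03, adjusted p = 1.4e-18) and did not pass in LM2 (-0.06 ± 0.08, adjusted p = 0.493). The responses of WASF1 and CTTN differed between the lines (4T1 less LM2 -1.20 ± 0.13 and -0.82 ± 0.07, adjusted p = 1.4e-07 and 2.6e-09). WASF2, another WAVE protein, had small ratios throughout, the largest being -0.35 ± 0.04 in LifeAct high cells. WASF3 fell with caMKL1 in LM2 (-0.36 ± 0.15, adjusted p = 0.045), where its range of 7.1 to 10.3 CPM overlapped the 10.1 to 11.3 of control, and rose in LifeAct high cells (0.30 ± 0.11). The LM2 fall did not pass when any 1 of the 6 control and caMKL1 libraries was left out (log2 -0.40 to -0.24, adjusted p = 0.0594 to 0.2), nor the LifeAct rise when high replicate 1 or negative replicate 2 was (log2 0.24 to 0.26, adjusted p = 0.0638 to 0.0826). WASF3 did not reach the minimum count in 4T1.

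Calls among the formins went in both directions. With caMKL1, 6 of 12 rose and 5 fell in LM2 (91.7% called beside 64.9% of all genes), and 5 rose and 5 fell in 4T1 (83.3% beside 72%), while LifeAct high cells had 3 higher and 8 lower (91.7% beside 71.1%). FMNL1, a formin typical of blood cells, fell in all of these: it was at 24.7, 26.4 and 27.5 CPM in LM2 control and 6.92, 3.39 and 4.97 with caMKL1. In 4T1 the control libraries had 117, 106 and 109 CPM and the caMKL1 libraries 39.2, 37.6 and 36.3, and LifeAct cells were at 205, 195 and 187 CPM in negative, 136, 143 and 137 in low and 85.8, 84.4 and 80.4 in high cells. The falls were 5.1-fold, 2.94-fold and 2.34-fold (log2 -2.35 ± 0.19, -1.55 ± 0.05 and -1.23 ± 0.05, adjusted p = 1.7e-08, 1.7e-19 and 2.1e-19). In LM2 MKL1 libraries FMNL1 was at 26.7, 24.8 and 30.6 CPM, overlapping control (adjusted p = 0.848). INF2, a formin that also cuts filaments, went from 30.9, 33.8 and 30.5 CPM in LM2 control to 15.8, 12.1 and 11 with caMKL1, and from 222, 212 and 223 to 131, 126 and 134 CPM in 4T1. In 4T1 wild-type MKL1 had it higher instead, at 256, 259.8 and 259.8 CPM, so the 2 constructs lay on either side of control (log2 0.24 ± 0.03 with MKL1 and -0.75 ± 0.03 with caMKL1, adjusted p = 1.2e-06 and 4.4e-16). FHOD1 showed the same order in 4T1, with log2 ratios of 0.21 ± 0.05 and -0.40 ± 0.05.

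FMNL3, which builds filopodia, parted the lines most among the opposite calls. It rose with caMKL1 in LM2, from 38.8, 39.4 and 41.9 to 101.8, 98.28 and 103.4 CPM (log2 1.34 ± 0.08, adjusted p = 1.1e-09), and fell in 4T1, from 107, 108 and 113 to 35.6, 33 and 36.9 CPM (log2 -1.64 ± 0.04, adjusted p = 3.6e-20). The difference between the responses was -2.98 ± 0.08 (4T1 less LM2, adjusted p = 3.4e-16). DIAPH3 and DIAPH2, formins of the diaphanous family, did the reverse. DIAPH3 fell with caMKL1 in LM2, from 217, 201 and 182 to 97.9, 112 and 113 CPM, and rose in 4T1, from 115, 117 and 117 to 206, 206 and 203 CPM (log2 -0.89 ± 0.10 and 0.82 ± 0.03). In 4T1 with wild-type MKL1 it was slightly lower (-0.23 ± 0.04). It rose most of all members with LifeAct, from 33.5, 37.9 and 39.5 CPM in negative to 75.3, 80.5 and 75 in low and 112, 122 and 115 in high cells (log2 1.65 ± 0.06, adjusted p = 4.8e-20). DIAPH2 went from 87.6, 85.9 and 92.3 CPM in control to 44.6, 52.9 and 56.5 with caMKL1 in LM2 and from 36.7, 38.7 and 43.2 to 81.4, 81 and 80.6 CPM in 4T1, with log2 ratios of -0.79 ± 0.14 and 1.04 ± 0.05 and no overlap in either line. DIAPH1, their close relative, rose in both lines, from 268, 267 and 257 to 718, 749.7 and 720.1 CPM in LM2 and from 109, 107 and 111 to 127, 133 and 133 CPM in 4T1 (log2 1.47 ± 0.10 and 0.27 ± 0.03).

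DAAM1, a formin of the planar polarity pathway, rose with caMKL1 in LM2, from 35.6, 32.3 and 34.7 to 79.5, 88.8 and 95.6 CPM (log2 1.36 ± 0.11, adjusted p = 1.8e-08), and in LifeAct high cells (0.84 ± 0.07), but did not pass in 4T1 (adjusted p = 0.0728). DAAM2, its relative, had the largest log2 ratio of any member in LM2 with caMKL1, 4.94 ± 0.29 (adjusted p = 5.0e-10), yet from a very low level, 0.284, 0.152 and 0.226 CPM in control and 6.73, 7.52 and 6.45 with caMKL1. Its exons overlap those of DAAM2-AS1 and MOCS1 over 30.1% of their bases. Reads there are left uncounted by the counting tool's default, so its level is uncertain. FHOD3, a formin of the heart sarcomere, rose with caMKL1 in both lines, from 17, 14.1 and 16.8 to 56.8, 59.5 and 60.6 CPM in LM2 and from 15.1, 14.7 and 14.7 to 38.4, 37.6 and 38.2 CPM in 4T1 (log2 1.89 ± 0.10 and 1.36 ± 0.06, adjusted p = 1.8e-10 and 3.6e-16). With wild-type MKL1 it rose in LM2, to 29.8, 29.1 and 29.5 CPM, and did not pass in 4T1 (adjusted p = 0.0792). The remaining formins gave smaller ratios: FMN1 rose with caMKL1 in 4T1 (0.72 ± 0.04) and did not pass in LM2 (adjusted p = 0.617), and FMNL2 rose slightly in LM2 (0.23 ± 0.09, but -0.18 with library totals) and fell in 4T1 (-0.94 ± 0.05). The MKL1 response of FHOD3 differed between the lines by -1.04 ± 0.11 (4T1 less LM2, adjusted p = 1.2e-06).

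Capping protein and the Ena/VASP family act on the barbed end with opposite effects, the first stopping and the second prolonging growth. CAPZB, the beta subunit of capping protein, was at 137, 139.6 and 140.1 CPM in LM2 control, 200.3, 172 and 182 with MKL1 and 262, 262 and 242 with caMKL1, and in 4T1 at 149, 149.97 and 145 CPM in control, 209.7, 202 and 207 with MKL1 and 358, 356 and 359 with caMKL1. All 3 groups lay apart in each line, and the caMKL1 log2 ratio was 0.88 ± 0.09 and 1.27 ± 0.03 (adjusted p = 2.4e-07 and 1.1e-21). Its partners, the alpha subunits, divided in LM2, where CAPZA1 fell (-0.39 ± 0.10) and CAPZA2 rose (0.81 ± 0.10), so that CAPZA2 went from 14.3 ± 0.786% to 27.7 ± 1.65% of their summed TPM. ENAH, the gene for Mena, was at 258, 249.7 and 249.7 CPM in LM2 control and 842, 1008 and 1026 with caMKL1, while in 4T1 it was at 85.4, 91.9 and 94.9 CPM in control and 190.3, 186 and 188 with caMKL1 (log2 1.93 ± 0.11 and 1.05 ± 0.04, adjusted p = 2.6e-10 and 9.2e-18). Wild-type MKL1 did not pass for ENAH in either line (adjusted p = 0.0682 and 0.879). VASP did the opposite: its ratio with MKL1 (0.62 ± 0.10 in LM2 and 0.78 ± 0.04 in 4T1) was above that with caMKL1 (0.47 ± 0.10 in LM2, lost with library totals at 0.072 and adjusted p = 0.624, and 0.46 ± 0.04 in 4T1), and caMKL1 against MKL1 was lower in 4T1 (-0.32 ± 0.04, adjusted p = 2.4e-08) without passing in LM2 (adjusted p = 0.229). EVL, the third member of the family, did not pass in LM2 with either construct (adjusted p = 0.459 and 0.157), fell in LifeAct high cells (-0.80 ± 0.11) and did not reach the minimum count in 4T1.

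Ezrin, radixin and moesin tie the filament network to the membrane. MSN, the moesin gene, was at 422, 423 and 455 CPM in LM2 control, 632, 653 and 589 with MKL1 and 1478, 1581 and 1549 with caMKL1 (log2 0.53 ± 0.09 and 1.83 ± 0.09, adjusted p = 0.0012 and 8.4e-11). Its 4T1 levels were 959, 981 and 974 CPM in control, 1232, 1222 and 1251 with MKL1 and 1587, 1583 and 1620.2 with caMKL1 (log2 0.35 ± 0.02 and 0.72 ± 0.02). RDX rose with caMKL1 in both lines (0.87 ± 0.11 and 0.32 ± 0.03) and EZR did not pass in LM2 (adjusted p = 0.103) and fell in 4T1 (-0.26 ± 0.03). In LifeAct high cells EZR rose (0.60 ± 0.04, adjusted p = 6.2e-14), while MSN did not pass (adjusted p = 0.275). ANLN, the gene for anillin of the cleavage furrow, fell with caMKL1 in LM2, from 829, 803 and 782 to 342, 465 and 432 CPM (-0.96 ± 0.12, adjusted p = 4.0e-06), and in 4T1 was at 569, 594 and 558 CPM in control and 611, 616 and 605 with caMKL1 (0.09 ± 0.03, but -0.093 with library totals). In LifeAct cells it rose from 211, 214 and 233 CPM in negative to 368, 356 and 373 in low and 449, 445 and 446 in high cells (1.03 ± 0.04, adjusted p = 6.0e-19).

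Between the lines, the response was tested as an interaction over 18 libraries and 10361 shared symbols. With MKL1, 14 of 57 members differed beside 25.6% of all shared symbols, 6 more positive in 4T1 and 8 in LM2, a share near that of all symbols. That count was 29 without the replicate 1 libraries of LM2 MKL1 and LM2 caMKL1, and 23 with limma's sample quality weights. With caMKL1, 44 of 57 members differed beside 70.9%, 20 more positive in 4T1 and 24 in LM2. Of the 57 members, 25 (43.9%) rose and 8 (14%) fell with caMKL1 in both lines, and 8 (14%) had opposite calls. Over all 10361 shared symbols the same shares were 16.7%, 20.5% and 21.1%, set beside the members as a description with no test. Of these, 18 of the 25 higher and 7 of the 8 lower kept their calls in both lines under every alternative, and of the opposite calls all but FMNL2 in LM2 and ANLN in 4T1. The shared falls were FHOD1, FMNL1, INF2, LIMK1, LIMK2, PFN2, SSH1 and SSH2. Beside the LifeAct experiment, which shares no library with them, 16 members rose and 5 fell in both caMKL1 comparisons and in LifeAct high cells, the 5 being FHOD1, FMNL1, INF2, LIMK1 and SSH1. These were 28.1% and 8.77% of the 57 members, where 8.35% and 6.22% of the 10264 symbols tested in all 3 were so called, and 11 of the 16 and 4 of the 5 kept all their calls under every alternative. Set side by side, caMKL1 in LM2 and LifeAct high cells had 18 of 60 members higher in both (30% beside 13% of 17703 genes tested in both) and 7 lower in both (11.7% beside 13%). Opposite calls were 7 higher with caMKL1 and lower with LifeAct (11.7% beside 9.45%), GSN and SVIL among them, and 6 the other way (10% beside 14.6%), with DIAPH3, PFN2 and ANLN among them, so that apart from the members higher in both these shares lay near those of all genes.

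**Figure D4:**
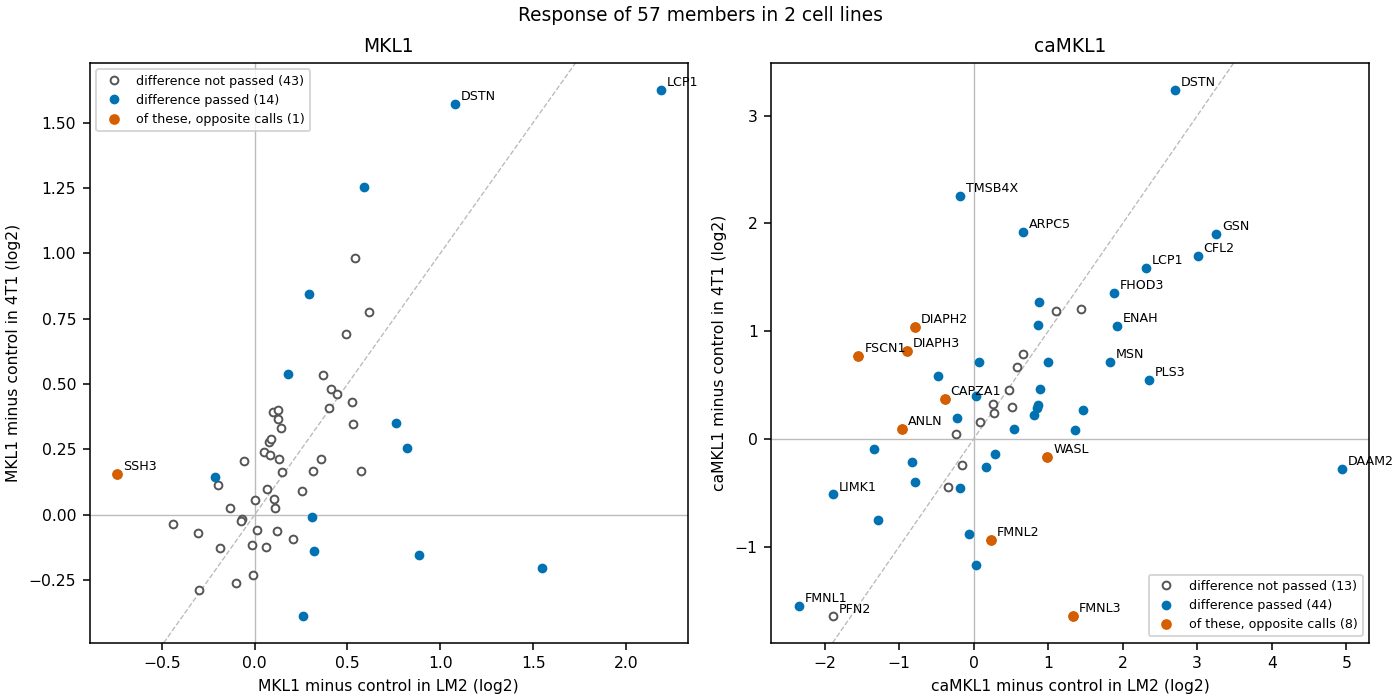
Log2 ratio over control in LM2 (horizontal axis) and in 4T1 (vertical axis) for the 57 members tested in both, with MKL1 on the left and caMKL1 on the right; filled points passed the test of the difference between the lines, orange points also had opposite calls, and the dashed line marks equal response. With caMKL1, TMSB4X and ARPC5 lie above the line, PLS3 and DAAM2 far below it, and FMNL3 and FSCN1 in opposite quadrants.

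Other regulators of the same pathway, 67 genes listed by role, were read beside the members. With MKL1, 8 of 61 tested rose and 7 fell in LM2 (24.6% called beside 12% of all genes) and 24 of 59 rose and 13 fell in 4T1 (62.7% beside 34.3%). With caMKL1, 29 rose and 20 fell in LM2 (80.3% beside 64.9%), and 27 rose and 25 fell in 4T1 (88.1% beside 72%). LifeAct high cells had 24 of 63 higher and 28 lower (82.5% beside 71.1%). The nucleator LMOD1, the leiomodin of smooth muscle, was nearly silent in LM2 control, at 0.122, 0.0759 and 0.453 CPM, and stood at 223, 275 and 286 with caMKL1. In 4T1 it went from 0.153, 0.193 and 0.151 CPM in control to 117, 119 and 116 with caMKL1, and both rises passed (adjusted p = 5.4e-14 and 5.4e-26). MARCKSL1, a filament cross-linker at the membrane, fell in LM2 with caMKL1 (-2.02 ± 0.18) and in LifeAct high cells (-3.07 ± 0.05) and rose in 4T1 (3.70 ± 0.03). ABLIM1, an actin-binding LIM protein, had the reverse split, at 2.49 ± 0.11 in LM2 and -2.59 ± 0.04 in 4T1. For the other classes, ARPIN, an inhibitor of Arp2/3, fell in LM2 with caMKL1 (-2.13 ± 0.12), the coronin CORO2A fell there as well (-2.31 ± 0.14), and EPS8, which caps and bundles, fell in 4T1 (-1.49 ± 0.04). Differences between the lines were not tested for these genes.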

How the data were processed

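The authors deposited raw counts for each gene name, made with featureCounts 2.0.1 on STAR alignments against Ensembl release 103 (GRCh38) for human and release 102 (GRCm38) for mouse, per the file headers. The headers show no strand option, and reads matching several places or several genes are left uncounted by that tool's default. Besides the overlaps given above, other human genes share 38.1% of the exon bases of WASF3, 23.3% of FMNL1, 19.7% of FMNL3 and 19.0% of CFL1. Per the labels' protocols, polyA selection was used for the construct experiments and depletion of ribosomal RNA for LifeAct. All columns were matched to samples (0 left unmapped).

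Genes passing edgeR's filter (minimum count 10) were tested in each experiment with the quasi-likelihood test of edgeR 4.0.16 in R 4.3.3, on TMM-scaled library sizes with a mean per group over its 9 libraries, and p-values were adjusted by Benjamini-Hochberg over all tested genes at 0.05. Every adjusted p in the text comes from this test unless another is named, log2 ratios use a prior count of 0.125, and ± after a log2 ratio is its standard error. CPM is TMM-scaled, and TPM was computed from the counts and the deposited gene lengths, with ± its SD over 3 libraries. Tables were normalised separately, so levels set across experiments are untested. Differences between the lines were tested as an interaction over 18 libraries matched by symbol. The test was checked on simulated counts. The members and lists were chosen with earlier results of these data known. Values in every library are given for members called with a log2 ratio of at least 1 in size and for related members compared as a set. Alternatives were library totals, DESeq2 size factors, DESeq2 1.42.0, no filter, a replicate block, limma 3.58.1 voom for the interaction, each library left out, and the replicate 1 libraries of LM2 MKL1 and caMKL1 left out together.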

Additional observations from a re-analysis of the deposited data

Results flagged for a closer look

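Opposite responses of the lines drew a closer look. For 1 member with MKL1 and 8 with caMKL1, every treated library lay above control in 1 line and below it in the other, both calls passed, and the difference between the lines passed as an interaction (edgeR, Benjamini-Hochberg adjustment over 10361 shared symbols). The differences are given as the log2 response in 4T1 less that in LM2. With MKL1 it was 0.89 ± 0.18 for SSH3 (SE, adjusted p = 0.00134), whose fall in LM2 did not pass when control replicate 2 or 3 or MKL1 replicate 2 was left out (log2 -0.74 to -0.60, adjusted p = 0.0713 to 0.128). With caMKL1, members higher in 4T1 and lower in LM2 were FSCN1 at 2.31 ± 0.18, DIAPH2 at 1.82 ± 0.18, DIAPH3 at 1.71 ± 0.11, ANLN at 1.05 ± 0.13 and CAPZA1 at 0.76 ± 0.10 (adjusted p = 6.7e-10, 1.8e-08, 3.3e-11, 7.2e-07 and 7.1e-07). Those lower in 4T1 and higher in LM2 were FMNL3 at -2.98 ± 0.08, FMNL2 at -1.17 ± 0.09 and WASL at -1.15 ± 0.12 (adjusted p = 3.4e-16, 4.7e-10 and 4.6e-08). With library totals, the FMNL2 ratio in LM2 became -0.18 and the ANLN ratio in 4T1 became -0.093, so that neither was then opposite. The lines also differ in species and gene annotation, and these cannot be told apart from the line. MRTFA also reached different levels in them, 140.2 to 181 CPM with MKL1 and 175 to 257 with caMKL1 in LM2. In 4T1 it was at 2087 to 2199 and 596 to 679 CPM, and the part of this level was not tested.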

How the results depend on the processing

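Of 314 calls of members in the comparisons and in the differences between lines, 257 passed in the same direction under every alternative run for them. DESeq2 size factors kept 310, DESeq2's own test 300 and testing without a filter 303, with no reversal. Library totals without scaling kept 284 and reversed 5: ACTR2 with caMKL1 in LM2 (-0.16, adjusted p = 0.0907), FMNL2 there (-0.18, adjusted p = 0.0821), and, in 4T1 with caMKL1, ANLN (-0.093, adjusted p = 0.00454), ARPC3 (-0.030, adjusted p = 0.515) and CFL1 (-0.087, adjusted p = 0.00289). The same setting raised the members lower with caMKL1 in LM2 from 14 to 25, caMKL1 against MKL1 in LM2 from 16 to 29, and MKL1 in 4T1 from 7 to 13. DESeq2's test gave 4 lower with MKL1 in 4T1. Members whose MKL1 response differed between the lines numbered 14, against 23 with limma voom sample quality weights and 29 without the replicate 1 libraries of LM2 MKL1 and caMKL1, the last chosen after seeing the data. The cause was not tested. Leaving out 1 library at a time, members higher with MKL1 in LM2 ranged from 10 to 22, being 10 without control replicate 2 and 11 without control replicate 1, members lower there ranged from 0 to 3, and members lower with MKL1 in 4T1 ranged from 4 to 9, being 4 without MKL1 replicate 1 or replicate 2. Leaving out libraries changed 43 gene and comparison pairs from passing to not passing for at least 1 library. Correlations of same-numbered deviations ran from 0.00304 to 0.297 in LM2, from -0.0366 to 0.216 in the 4T1 cells and from -0.033 to 0.00202 under LifeAct. In most cases in LM2 and 4T1 the same-numbered library was the best match in the other group, and under LifeAct it never was. Replicate numbers thus went with weak likeness in the construct experiments, which the main test does not use. The replicate block ended none of the 314 calls, with 21 higher and 3 lower for MKL1 and 33 and 16 for caMKL1 in LM2. RPKM in place of TPM cannot change paralog shares, by construction. Replicate spread, as the biological coefficient of variation, was largest in LM2 (0.118, against 0.0345 for 4T1 and 0.0439 for LifeAct), which limits what could pass there.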
